A study of Mus musculus with 18 samples.

Results

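The disease-associated microglia genes described here are Apoe, Lpl, Spp1, Gpnmb, Cst7, Cst3, Cd44 and Lgals3, 8 of the 17714 gene labels of the isoform table. They were chosen by name, and their 101 isoforms are part of 114425 in all. Of the 8 genes, 7 encode secreted or membrane proteins, and Lgals3 encodes galectin-3, which is made in the cytosol. Small extracellular vesicles (sEVs) are membrane particles that cells shed and that carry RNA. The study prepared sEVs from primary mouse brain cultures to ask whether the mRNA packed into them depends on the cell type. The groups were astrocyte-derived sEVs against astrocytes, microglia-derived sEVs against microglia, and neuron-derived sEVs against neurons, with 3 libraries in each of the 6 groups and 18 in all. The labels give brain as the tissue and primary culture as the source for every group, and name no strain, age or treatment. Polyadenylated RNA was read as full-length cDNA on a PacBio Sequel II, with all cell libraries pooled for 1 run and all sEV libraries pooled for another, so fraction and pool cannot be told apart wherever sEVs are compared with cells. The labels do not say whether the replicates were separate cultures, so a p-value here speaks only of the spread among these libraries, which may be technical.

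In diseased or injured brain, microglia take on a state in which homeostatic genes go down and genes for lipid uptake, lysosomal breakdown and matrix contact go up. Several of the genes described here are among its best-known markers. Apolipoprotein E carries cholesterol and lipoprotein lipase frees fatty acids from lipoproteins, osteopontin (Spp1) binds integrins and CD44, GPNMB is a glycoprotein of lysosomes and the cell surface, cystatin F (Cst7) and cystatin C (Cst3) inhibit cathepsins, and galectin-3 binds galactose-bearing glycans. Messages for secreted and membrane proteins are translated at the endoplasmic reticulum, whereas galectin-3 has no signal peptide, is translated in the cytosol and leaves the cell by an unconventional route.

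Promoter sequences are shown for 4 of the genes, chosen because Spp1 and Gpnmb were at low counts outside the microglia libraries and because Cst7 and Lgals3 were not called lower in microglia sEVs. Each holds the 250 bases before the first listed start, 5′ to 3′ on the gene's own strand, from RefSeq on GRCm38.p6, which is an older build than that of the reads. The positions are chr5:104434861-104435110 for Spp1, chr6:49036268-49036517 for Gpnmb, chr2:150570165-150570414 for Cst7 and chr14:47373610-47373859 for Lgals3, all on the plus strand. Capitals mark matches to 4 motifs searched on both strands: AP-1 (TGANTCA), a PU.1 core (GAGGAA), an M-box core (CATGTG) and a TATA box (TATAAA).
Spp1: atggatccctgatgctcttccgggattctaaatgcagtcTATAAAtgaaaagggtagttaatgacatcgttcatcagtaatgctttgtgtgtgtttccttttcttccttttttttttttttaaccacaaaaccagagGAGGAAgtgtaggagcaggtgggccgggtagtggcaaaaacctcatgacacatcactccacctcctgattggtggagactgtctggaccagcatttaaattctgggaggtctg
Gpnmb: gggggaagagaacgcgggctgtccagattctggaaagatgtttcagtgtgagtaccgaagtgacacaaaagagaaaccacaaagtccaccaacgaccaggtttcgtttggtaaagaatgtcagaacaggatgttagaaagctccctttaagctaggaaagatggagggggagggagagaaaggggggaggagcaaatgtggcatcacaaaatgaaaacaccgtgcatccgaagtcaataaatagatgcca
Cst7: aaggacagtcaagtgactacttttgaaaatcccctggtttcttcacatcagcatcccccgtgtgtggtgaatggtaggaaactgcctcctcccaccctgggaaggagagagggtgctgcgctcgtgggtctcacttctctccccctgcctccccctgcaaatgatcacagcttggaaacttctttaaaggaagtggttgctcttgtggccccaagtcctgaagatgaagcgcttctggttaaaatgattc
Lgals3: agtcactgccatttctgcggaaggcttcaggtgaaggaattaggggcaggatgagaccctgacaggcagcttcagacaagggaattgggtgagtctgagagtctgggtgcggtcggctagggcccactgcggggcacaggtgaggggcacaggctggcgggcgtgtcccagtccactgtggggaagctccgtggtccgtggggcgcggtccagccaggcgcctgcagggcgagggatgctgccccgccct
Of the 8 genes, 7 matched RefSeq promoters, with 10 entries, and Lpl is named only. The Spp1 stretch held a TATA box match from 211 to 206 bases before the start and a PU.1 core match from 113 to 108 bases before it, and the matches did not overlap. The other 3 stretches held no match to the letters searched. Among 32851 RefSeq promoters of the same length, 6.75% held the AP-1 letters, 23.3% the PU.1 core, 12.3% the M-box core and 12.4% the TATA box.

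Library totals ran from 434298 to 683381 reads. Levels are read counts summed over the isoforms of a gene, as CPM after TMM scaling of the library sizes, as mean ± SD with n = 3 libraries. Differences were tested by edgeR's quasi-likelihood test in 1 fit of 8184 genes and all 18 libraries, with Benjamini-Hochberg adjustment and a threshold of 0.05. Log2 fold changes carry the standard error of that fit. Of the genes described, 8 passed the filter on low counts. Lpl, Gpnmb, Cst7 and Lgals3 did so only through the microglia libraries, and Spp1 through these and some astrocyte libraries. A 0 in the table allows up to 3 reads per library by counting alone, and since the smallest value above 0 is 2, a 0 can also hide single reads of an isoform. A fold against a group at 0 is therefore given as "at least" that floor of 3 reads per library.

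The labelled cell types were checked against marker lists, given as CPM of the unscaled library totals. Summed over 15 microglia markers, microglia sEVs stood at 6913 to 11485 and microglia cells at 20599 to 26216, astrocyte sEVs at 13.004 to 82.0 and astrocyte cells at 120 to 194, and neuron sEVs at 5.99 to 19.1 and neuron cells at 108 to 164. Of the 15, 12 had reads in microglia sEVs (Tmem119, Itgam and Ly86 were at 0) and 14 in microglia cells (Cx3cr1 was at 0), 7 in astrocyte sEVs and 5 in astrocyte cells, and 3 in neuron sEVs and 2 in neuron cells. The defining markers Aif1, C1qa and Tyrobp, which were read in both microglia groups, were at 0 in astrocyte sEVs and cells and in neuron sEVs and cells. Summed over 11 astrocyte markers, neuron sEVs stood at 2752 to 3809 and neuron cells at 4007 to 4561, against 11882 to 24003 in astrocyte sEVs and 30810 to 31582 in astrocyte cells. The sum over 10 neuron markers was 2877 to 3718 in neuron sEVs and 5917 to 7358 in neuron cells. It was 306 to 362 in astrocyte sEVs, 264 to 479 in astrocyte cells, 0 to 64.4 in microglia sEVs and 0 to 8.78 in microglia cells. In neuron sEVs the neuron and astrocyte marker sums thus overlapped. Summed over 10 oligodendrocyte lineage markers, astrocyte sEVs stood at 1950 to 3139, against 4489 to 9658 in astrocyte cells. Neuron sEVs stood at 279 to 446 and neuron cells at 606 to 1762. Of the 8 tested, 6 were called lower in astrocyte sEVs, where 12.2% of all genes were, and 4 in neuron sEVs, where 17.8% were. The part of oligodendrocyte lineage cells in the astrocyte and neuron changes below was not tested. A cell type present in fewer cells and one with less RNA per cell cannot be told apart in such bulk libraries.

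In microglia sEVs the lipid and matrix transcripts Apoe, Lpl, Spp1, Gpnmb and Cd44 fell against microglia cells, with log2 fold changes of -2.57 to -4.93. Cst7, Cst3 and Lgals3 were not called. Astrocyte sEVs had lower Apoe, Cst3 and Cd44, and neuron sEVs had lower Apoe, Cst3, Cd44 and Lpl. No gene of the 8 was called higher in sEVs of any of the 3 cell types. The count of lower genes was 5 of 8 in microglia, where 9.18% of all tested genes were called lower, 3 of 8 in astrocytes, where 12.2% were, and 4 of 8 in neurons, where 17.8% were.

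**Figure D1:**
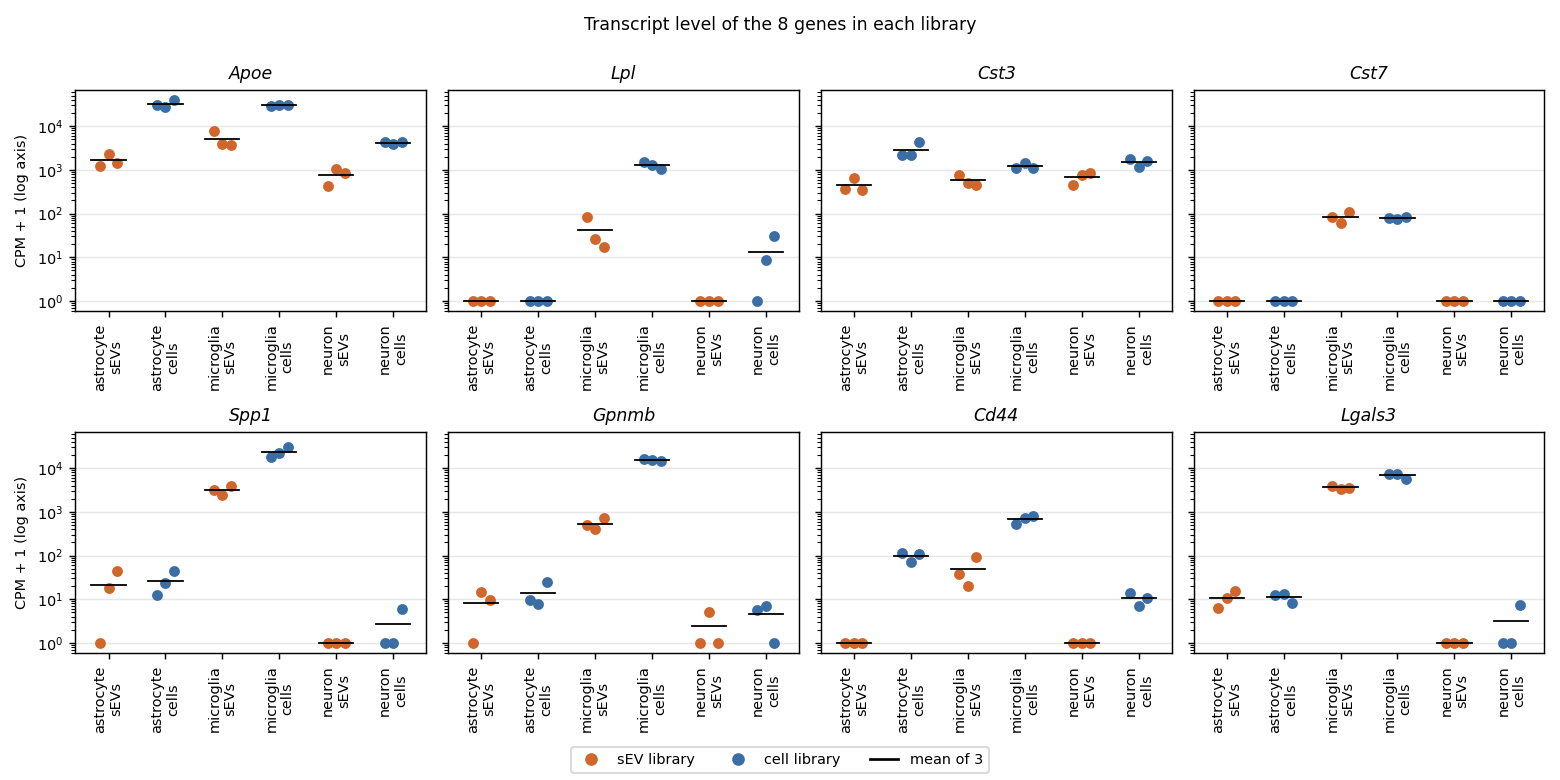
TMM-scaled CPM + 1 of the 8 genes (log axis) in each library, sEV libraries beside the cell libraries of the same cell type, with a bar at the group mean of 3 libraries. Apoe and Cst3 have reads in all 18 libraries, whereas Cst7 has reads only in the 6 microglia libraries.

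Apoe encodes the lipoprotein particle protein that glia make to carry cholesterol. In microglia sEVs it stood at 7869, 3822 and 3628 CPM, against 29756, 30560 and 30958 CPM in microglia cells. The cell libraries lay close together, and the first sEV library was high among the sEVs but far below every cell library. The log2 fold change was -2.57 (SE 0.392, adjusted p = 0.000398, edgeR). In astrocyte sEVs Apoe stood at 1226, 2357 and 1469 CPM, against 31144, 27005 and 39501 CPM in astrocyte cells. Each astrocyte sEV library thus lay far below each cell library, with a log2 fold change of -4.27 (SE 0.423, adjusted p = 2.01e-06, edgeR). In neuron sEVs it stood at 436, 1023 and 841 CPM, against 4287, 3875 and 4346 CPM in neuron cells. The log2 fold change in neurons was -2.44 (SE 0.391, adjusted p = 0.000172, edgeR), again without overlap. The neuron libraries carried the astrocyte marker sums given above, and the part of those markers in the neuron Apoe reads was not tested.

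Lpl encodes lipoprotein lipase, the secreted enzyme that hydrolyses triglycerides in lipoproteins. It had 83.4, 25.2 and 16.4 CPM in microglia sEVs, against 1501, 1283 and 1032 CPM in microglia cells. The spread within the sEV libraries was wide, but all of them lay far below the cells, and the log2 fold change was -4.93 (SE 0.806, adjusted p = 0.00244, edgeR). Astrocyte sEVs and astrocyte cells had 0 reads of Lpl in all 6 libraries. Neuron sEVs had 0 reads, and neuron cells had 0, 5 and 18 reads. The neuron groups overlapped at 0, and the difference was at least 2.24-fold lower in sEVs (adjusted p = 0.0451, edgeR). This call was lost in 9 of the 18 fits that left out a library (each microglia cell library, neuron cell replicates 2 and 3, microglia sEV replicate 2 and each neuron sEV library; adjusted p-values from 0.0135 to 0.166 over all 18) and without the 2 libraries rich in the predicted gene Gm42047 (astrocyte sEV replicate 1 and neuron sEV replicate 1; adjusted p = 0.0885).

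Cst3 encodes cystatin C, an abundant secreted inhibitor of lysosomal cysteine proteases. Astrocyte sEVs had 360, 667 and 341 CPM, against 2206, 2151 and 4440 CPM in astrocyte cells. All sEV libraries lay below the cells, of which replicate 3 was the highest, and the log2 fold change was -2.69 (SE 0.378, adjusted p = 8.02e-05, edgeR). Neuron sEVs had 461, 753 and 851 CPM, against 1748, 1162 and 1574 CPM in neuron cells. The neuron log2 fold change was -1.12 (SE 0.36, adjusted p = 0.0252, edgeR), and the call was lost when neuron cell replicate 1, neuron cell replicate 3, neuron sEV replicate 1 or neuron sEV replicate 2 was left out, with adjusted p-values of up to 0.109. Microglia sEVs had 768, 511 and 454 CPM, against 1111, 1433 and 1126 CPM in microglia cells. These groups did not overlap either, but the log2 fold change of -1.08 (SE 0.361, 95% interval -1.87 to -0.30) did not pass the threshold (adjusted p = 0.0616, edgeR). Without TMM scaling it was -0.46 (adjusted p = 0.408, edgeR). Leaving out single libraries gave adjusted p-values from 0.0364 to 0.193, under the threshold without astrocyte cell replicate 3, astrocyte sEV replicate 2 or microglia sEV replicate 1.

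Cst7 encodes cystatin F, a cystatin of immune cells that is targeted to lysosomes and is among the most used markers of the disease-associated state. It was read only in microglia, with 45, 31 and 65 reads in sEVs and 24, 26 and 37 reads in cells. These counts correspond to 81.6, 60.2 and 107 CPM in microglia sEVs, against 76.6, 73.6 and 84.7 CPM in microglia cells. The ranges overlapped, and the log2 fold change was 0.08 (SE 0.616, adjusted p = 1, edgeR). Its 95% interval ran from -1.26 to 1.42 and so includes changes of either sign.

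Spp1 encodes osteopontin, a secreted matrix protein that binds integrins and CD44. Microglia sEVs had 3083, 2492 and 3922 CPM, against 17608, 22168 and 31239 CPM in microglia cells. No sEV library came near a cell library, but the cell libraries themselves were spread, and the log2 fold change was -2.90 (SE 0.746, adjusted p = 0.0188, edgeR). The call was lost when microglia cell replicate 3, microglia sEV replicate 1 or microglia sEV replicate 2 was left out, with adjusted p-values from 0.00178 to 0.079 over all such fits. Astrocyte sEVs had 0, 9 and 31 reads, and astrocyte cells had 8, 16 and 31 reads. These overlapping groups gave a log2 fold change of -0.33 (adjusted p = 0.868, edgeR). In neurons Spp1 was at 0 in the sEV libraries and in all but 1 cell library.

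Gpnmb encodes a transmembrane glycoprotein of lysosomes, melanosomes and the surface of phagocytes. Microglia sEVs had 504, 394 and 708 CPM, against 15979, 15597 and 14505 CPM in microglia cells. The cell libraries differed little, all sEV libraries lay far below them, and the log2 fold change was -4.84 (SE 0.659, adjusted p = 0.000155, edgeR). Astrocyte sEVs had 0, 13.6 and 8.60 CPM, against 8.60, 6.93 and 24.0 CPM in astrocyte cells. Those groups overlapped (log2 fold change -0.92, adjusted p = 0.471, edgeR), and neuron sEVs and cells had at most 6.12 CPM. Read-through isoforms joining Gpnmb and its neighbour Malsu1 were labelled apart and held 6 reads in all, so they hardly touch these sums.

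Cd44 encodes the cell-surface receptor for hyaluronan and osteopontin. Microglia sEVs had 36.2, 19.4 and 92.0 CPM, against 527, 739 and 808 CPM in microglia cells. The groups were well apart, with a log2 fold change of -3.79 (SE 0.497, adjusted p = 0.000327, edgeR). Astrocyte sEVs had 0 reads in 3 libraries, against 116, 70.6 and 107 CPM in astrocyte cells. That is at least 21.01-fold lower in sEVs (adjusted p = 2.32e-05, edgeR). Neuron sEVs had 0 reads in 3 libraries, against 12.6, 6.12 and 9.85 CPM in neuron cells, at least 1.72-fold lower (adjusted p = 0.00567, edgeR). Cd44 was thus called lower in sEVs of all 3 cell types, in neurons from few reads. With the 2 neuron groups alone Cd44 did not enter the fit, and the neuron call was kept in the other alternatives run.

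Lgals3 encodes galectin-3, the cytosolic member set against the others. Microglia sEVs had 3943, 3401 and 3598 CPM, against 7493, 7216 and 5759 CPM in microglia cells. Each sEV library lay below each cell library, and the log2 fold change was -0.90 (SE 0.42, 95% interval -1.82 to 0.01), which did not pass the threshold (adjusted p = 0.2, edgeR). DESeq2 did call it (log2 fold change -0.91, adjusted p = 0.00418), and without TMM scaling it was -0.32 (adjusted p = 0.724, edgeR). Astrocyte sEVs had 5.17, 9.70 and 14.3 CPM, against 11.5, 12.5 and 7.06 CPM in astrocyte cells, ranges that overlapped (adjusted p = 0.987, edgeR). In neurons Lgals3 was at 0 in the sEV libraries and in all but 1 cell library.

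**Figure D2:**
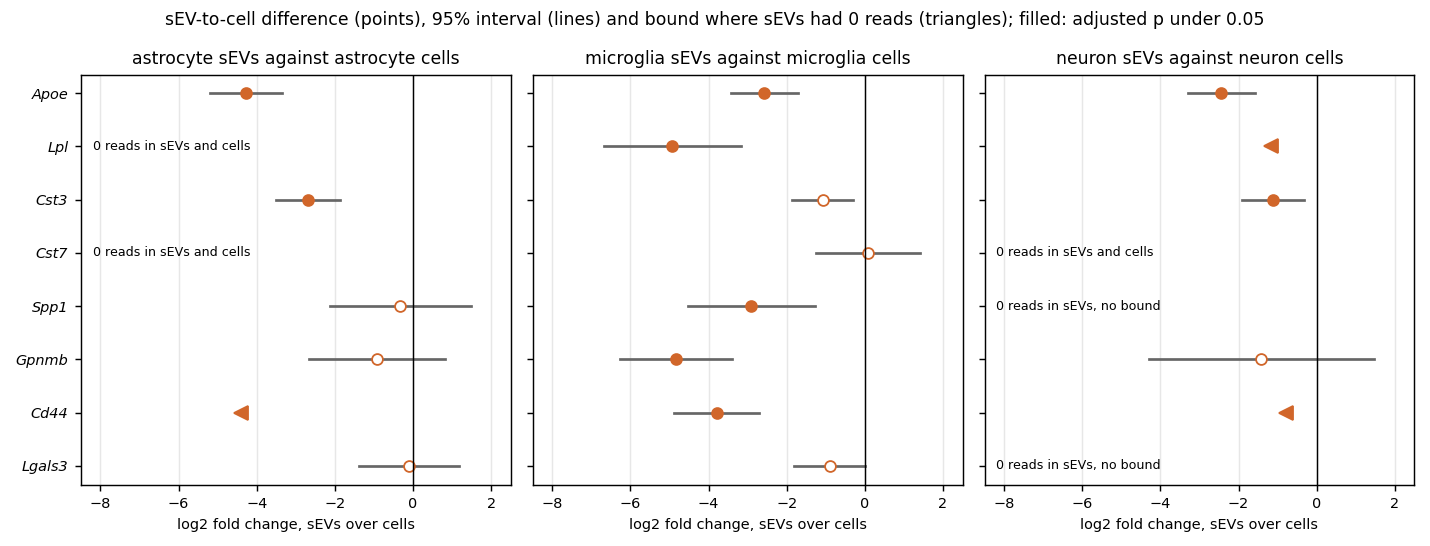
Log2 fold change of sEVs over cells for each gene and cell type, with its 95% interval; filled symbols have an adjusted p under 0.05, and triangles mark the bound where sEVs had 0 reads. In microglia Lpl and Gpnmb lie near -5, whereas Cst7 lies near 0 and Cst3 and Lgals3 near -1.

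Setting Lgals3 against each other gene within the same microglia library leaves out the scaling between libraries, and the ratio is compared here only between fractions, not between genes. There were 0.501, 0.890 and 0.992 reads of Lgals3 per read of Apoe in sEVs, against 0.252, 0.236 and 0.186 in cells. Per read of Gpnmb there were 7.83, 8.63 and 5.08 in sEVs, against 0.469, 0.463 and 0.397 in cells. The ratio was higher in every sEV library than in every cell library for Apoe, Lpl, Spp1, Gpnmb and Cd44. Between geometric means it was 3.42-fold, 20.7-fold, 3.97-fold, 15.9-fold and 9.10-fold higher, in that order. It was lower in every sEV library for Cst7, with 48.4, 56.5 and 33.7 in sEVs against 97.8, 98 and 68 in cells. For Cst3 the ranges overlapped, at 5.13, 6.66 and 7.93 in sEVs against 6.74, 5.04 and 5.11 in cells (1.16-fold, exact two-sided permutation p = 0.4). The exact two-sided permutation p of each of the other 6 ratios was 0.1, the smallest that 3 against 3 allows, and 0.117 after adjustment over the 7 ratios. All 7 ratios share the Lgals3 counts.

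**Figure D3:**
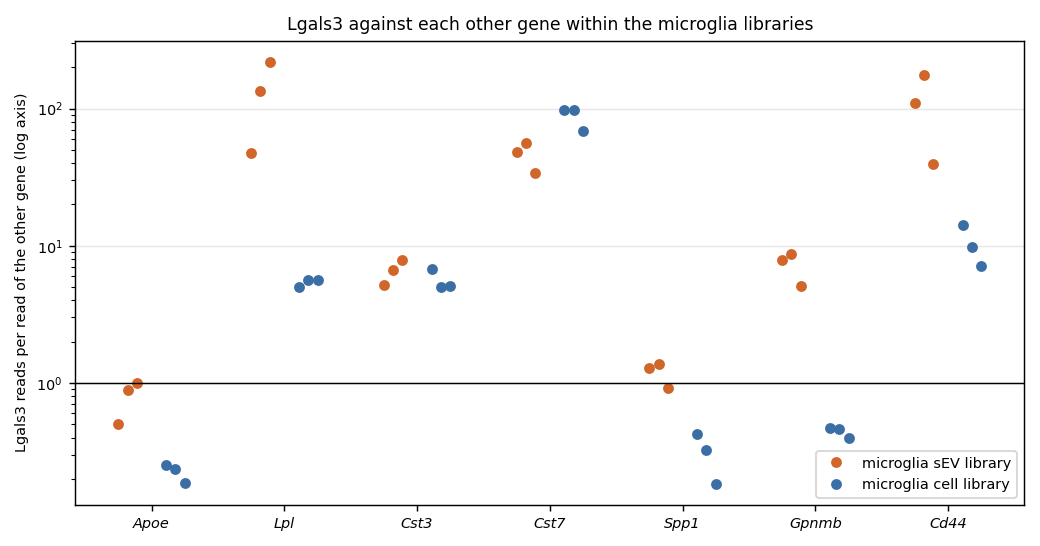
Reads of Lgals3 per read of each other gene in the 3 microglia sEV libraries and the 3 microglia cell libraries (log axis). The sEV points lie above the cell points for Apoe, Lpl, Spp1, Gpnmb and Cd44, below them for Cst7, and among them for Cst3.

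Whether the sEV-to-cell change differed between cell types was tested as an interaction, in which the sequencing pools cancel. None of the 8 genes was called by edgeR in the 3 interactions, in which 1.27% (microglia minus astrocyte), 5.14% (microglia minus neuron) and 0.477% (neuron minus astrocyte) of all genes were called. At an unadjusted p under 0.05 there were 5 of 8 for microglia minus astrocyte, 0 for microglia minus neuron and 2 for neuron minus astrocyte. DESeq2 called 3, 0 and 1 of the 8 in the same order. The shares of all genes at an unadjusted p under 0.05 or by DESeq2 were not counted, so nothing is read from these counts. For microglia minus astrocyte the difference of log2 changes was 1.70 for Apoe (SE 0.527, adjusted p = 0.123, edgeR; 0.0413 by DESeq2). It was -3.92 for Gpnmb (SE 1.05, adjusted p = 0.0755, edgeR; 0.000314 by DESeq2), and 1.60 for Cst3 (SE 0.508, adjusted p = 0.133, edgeR). Cd44, at 0 in astrocyte sEVs, had an adjusted p of 0.0755 by edgeR and 0.0188 by DESeq2. For microglia minus astrocyte these calls turn on the setting: edgeR without TMM scaling called Apoe (adjusted p = 0.0246), Cst3 (0.0229) and Cd44 (0.0246), and edgeR without the filter on low counts called these 3, Spp1 and Gpnmb.

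Across cell types, the 8 genes were compared among cells and among sEVs. Among cells, microglia were higher than astrocytes for 6 of 8 genes, where 15.1% of all genes were higher (and lower for Cst3, where 20.3% were lower), and higher than neurons for 7 of 8, where 16.6% were. Nothing is read from these counts, since Lpl, Gpnmb, Cst7 and Lgals3 passed the filter only through the microglia libraries. Cells of the same pool are compared here, so pool and group are not confounded. Against astrocyte cells the log2 difference of microglia cells was 2.82 for Cd44 (SE 0.47). For Spp1, Gpnmb and Lgals3 it was 9.83, 10.2 and 9.34, and Lpl and Cst7 were at least 301-fold and 18.5-fold higher. Except for Spp1, these genes entered the fit only through the microglia libraries, and the values of all 5 are given as a description and not a test. Apoe was not called between microglia and astrocyte cells (30424 ± 612 CPM against 32550 ± 6365 CPM, log2 difference -0.10, 95% interval -0.90 to 0.71, adjusted p = 0.881, edgeR). This likeness turns on the scaling. Without TMM scaling the log2 difference was -0.88 (adjusted p = 0.0637, edgeR). By unscaled totals microglia cells had 21460, 20676 and 19791 CPM, all below the 38011, 34334 and 41696 CPM of astrocyte cells. Cst3 had another order: it was lower in microglia cells than in astrocyte cells (1223 ± 182 against 2932 ± 1306 CPM, log2 difference -1.26, SE 0.361, adjusted p = 0.0117, edgeR).

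Neuron cells had lower Apoe (log2 difference -2.96, SE 0.398), Cd44 (-3.34, SE 0.546) and Spp1 (-3.85, SE 1.17, adjusted p = 0.0483, edgeR) than astrocyte cells, 3 of 8 genes, where 3.6% of all genes were lower. The order in cells was therefore microglia and astrocytes above neurons for Apoe, and microglia above astrocytes above neurons for Cd44. For Spp1 astrocytes were above neurons, and the place of microglia is given above as a description only. For Gpnmb and Lgals3 the place of microglia is not read, since these genes passed the filter only through the microglia libraries. Neuron cells lay below astrocyte cells without overlap for both, with log2 differences of -1.78 for Gpnmb (95% interval -3.70 to 0.13) and -2.17 for Lgals3 (-3.80 to -0.55) that did not pass the threshold (adjusted p = 0.251 and 0.0806, edgeR) but did without the filter on low counts (0.0129 and 0.0107). The neuron cell libraries held only 3, 4 and 0 reads of Gpnmb and 0, 0 and 4 reads of Lgals3. For Cst3 astrocytes were above microglia. Neurons, at 1494 ± 301 CPM, lay below astrocytes without overlap, but the log2 difference of -0.97 (95% interval -1.75 to -0.19) did not pass the threshold (adjusted p = 0.0992, edgeR). Cst3 in microglia cells overlapped with neuron cells (log2 difference -0.29, adjusted p = 0.542, edgeR), and without TMM scaling microglia were called lower (-1.08, adjusted p = 0.0155, edgeR).

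Among sEVs, microglia sEVs were higher for 7 of 8 genes than astrocyte sEVs, where 16% of all genes were higher, and for 7 of 8 than neuron sEVs, where 19.9% were, and nothing is read from these counts for the same reason. The log2 difference of Apoe was 1.60 against astrocyte sEVs (SE 0.379, adjusted p = 0.00287, edgeR) and 2.74 against neuron sEVs (SE 0.396), whereas the difference of Apoe between microglia cells and astrocyte cells was not called. The difference between these contrasts is the interaction of Apoe above, whose call turns on the setting. Spp1 and Lgals3 had 0 reads in neuron sEVs. As a description only, microglia sEVs were at least 571-fold and 658-fold higher for them. Cst3 was the gene not called, with 578 ± 168 CPM in microglia sEVs, 456 ± 183 in astrocyte sEVs and 689 ± 203 in neuron sEVs (adjusted p-values of 0.292 to 0.582 over the 3 pairs, edgeR). Neuron sEVs were called lower than astrocyte sEVs for Spp1, whose libraries overlapped at 0, and for Lgals3 (at least 1.76-fold lower, adjusted p = 0.00742, edgeR), where 5.28% of all genes were lower. Both calls rest on few reads, with 0, 9 and 31 of Spp1 and 4, 5 and 10 of Lgals3 in astrocyte sEVs.

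The reads of most genes came from 1 isoform. The leading isoform held 97.9% of 123648 Apoe reads, 99.9% of 13345 Cst3 reads, 97.6% of 17811 Gpnmb reads, 91.3% of 32459 Spp1 reads and 89.97% of 1466 Lpl reads. Each of these is a full-splice match, that is, it holds every splice junction of a reference transcript. Cst7 (228 reads) and Cd44 (1091 reads) had leading full-splice matches at 76.3% and 76.1%. Lgals3 had 2 main isoforms, both full-splice matches, of which the one with an alternative 3′ end held 67.7% and the one with alternative 5′ and 3′ ends held 31.8% of 13573 reads.

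Of 17 isoforms of these genes that passed the filter, 7 were lower in microglia sEVs (8% of all tested isoforms were lower), 4 in astrocyte sEVs (12.3%) and 3 in neuron sEVs (20.9%), and 0 were higher by edgeR. These counts are not read further, since some isoforms passed the filter through the cell libraries in which they were high. Among those called, a Lpl fragment isoform had 37, 32 and 27 reads in microglia cells and 0 in each microglia sEV library. An Apoe isoform with an alternative 5′ end had 27, 671 and 33 reads in astrocyte cells, against 0, 4 and 0 in astrocyte sEVs. In microglia the minor Spp1 isoform with an alternative 3′ end was called (log2 fold change -2.81, adjusted p = 0.00535, edgeR) whereas the leading one had -2.95 and was not (adjusted p = 0.0701, edgeR). The mix of isoforms was tested in the 5 genes with more than 1 tested isoform, and 0 were called in any cell type by edgeR's diffSpliceDGE (background 2%, 2.4% and 2% of genes in astrocytes, microglia and neurons). At an unadjusted p under 0.05 there was 1, Apoe in astrocytes (adjusted p = 0.107). There the isoform that retains part of an intron held 156, 139 and 7 reads in sEVs, against 23, 15 and 28 reads in cells. Its share was thus high in 2 of the 3 sEV libraries and low in the third.

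Full-splice matches held 90.2 ± 8.07% of Apoe reads in astrocyte sEVs, against 99.2 ± 0.691% in astrocyte cells (SD, n = 3, exact two-sided permutation p = 0.2). Over all reads the share of full-splice matches was also lower in astrocyte sEVs, at 78.3, 82.0 and 84.9%, against 88.6, 89.2 and 89.8% in astrocyte cells. For Gpnmb in microglia they held 93.8 ± 1.93% in sEVs, against 97.95 ± 0.716% in cells, without overlap (exact permutation p = 0.1, the smallest possible). Over all reads the share was lower in microglia sEVs as well, at 88.7, 83.2 and 86.8%, against 91.9, 91.5 and 91.1% in microglia cells. For Lpl in microglia the order was the other way, with 100% in each sEV library, against 91.4 ± 1.41% in cells (exact permutation p = 0.1). The sEV libraries held only 46, 13 and 10 Lpl reads. With incomplete-splice matches counted as well, the difference of sEVs minus cells was 0.148 percentage points for Lpl and not 8.65 (exact permutation p = 1), and for Gpnmb it was 0.701 and not -4.20. The other Lpl reads in cells belong mainly to a fragment isoform of 102 reads that keeps the 5′ part of the transcript. For Cd44 in microglia the values scattered over 0, 80.0 and 87.5% in sEVs, against 90.9, 69.7 and 78.8% in cells, on few sEV reads.

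The Lgals3 isoforms differed between replicates more than between fractions. The isoform with both ends alternative held 49.8, 55.0 and 3.61% of Lgals3 reads in microglia sEVs, against 41.7, 44.8 and 1.39% in microglia cells. Replicate 3 stood apart in both fractions, and the sum over isoforms, 3598 CPM in its sEV library and 5759 CPM in its cell library, did not stand apart in sEVs and was the lowest in cells.

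**Figure D4:**
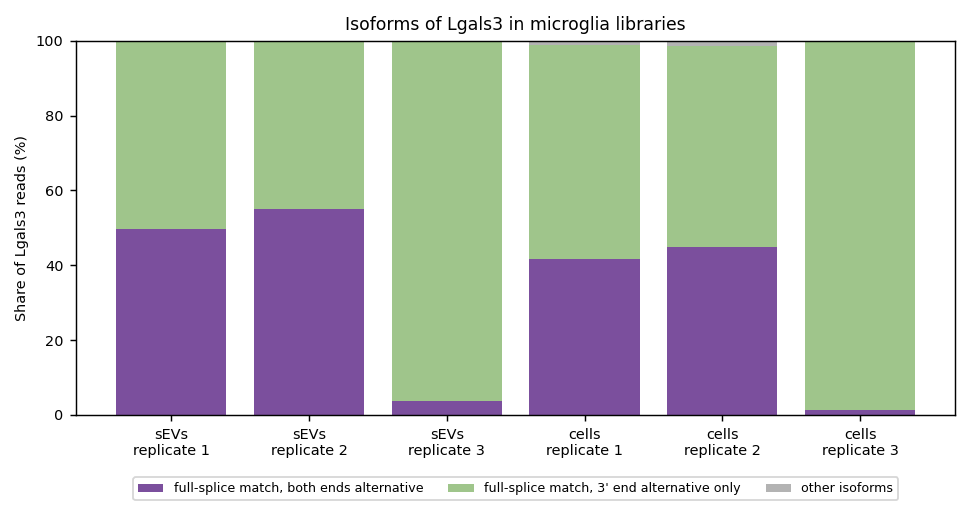
Share of Lgals3 reads (%) held by each isoform in the 3 microglia sEV libraries and the 3 microglia cell libraries. The isoform with both ends alternative holds 41.7 to 55.0% in replicates 1 and 2 and under 4% in replicate 3, in sEVs and in cells.

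Further genes of the same pathways were described by lists split by where their proteins are made. Among all tested genes, 2.7% were called higher in microglia sEVs, 8.04% in astrocyte sEVs and 13.6% in neuron sEVs, and the shares called lower are those given above. Of 23 tested disease-associated microglia genes with secretory or membrane products, 10 were lower and 0 higher in microglia sEVs, with a median log2 fold change of -1.75, against 0 over all genes. In astrocyte sEVs 8 were lower and 0 higher, with a median of 0. In neuron sEVs 9 were lower and 0 higher, with a median of -2.28, or 0 with genes at 0 reads set to their bound. Of the 23 genes, 9 had a group at 0 reads in astrocytes and 12 in neurons. The lysosomal protease genes Ctsb, Ctsd and Ctsl were among them in microglia. Ctsd, the gene of cathepsin D, had 1021 ± 259 CPM in microglia sEVs, against 17566 ± 750 CPM in microglia cells (log2 fold change -4.10, adjusted p = 1.90e-06, edgeR). The cytokine gene Csf1 had 0 reads in microglia sEVs and 111 ± 50.4 CPM in microglia cells, at least 20.6-fold lower. Of 7 tested disease-associated genes with cytosolic or nuclear products, 0 were lower in any cell type, 3 were higher in astrocyte sEVs, 3 in neuron sEVs and 0 in microglia sEVs. The ferritin light chain gene Ftl1 had 204295 ± 82037 CPM in astrocyte sEVs, against 4210 ± 943 CPM in astrocyte cells. Of 6 tested homeostatic microglia genes, 3 were lower in microglia sEVs, among them Csf1r, the receptor on which microglia depend (12.6 ± 19.002 CPM in sEVs, against 413 ± 31.3 CPM in cells), and 0 were higher. In astrocyte sEVs and in neuron sEVs 1 was higher and 1 lower each, the higher being Sall1, a transcription factor gene (224 ± 104 CPM in astrocyte sEVs, against 5.20 ± 5.70 CPM in astrocyte cells, and 268 ± 112 CPM in neuron sEVs, against 2.19 ± 3.79 CPM in neuron cells).

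Of 15 tested genes for lipoproteins, lipases and lipid receptors, 11 were lower and 0 higher in microglia sEVs, with a median of -3.75, or -2.77 with genes at 0 reads set to their bound. In astrocyte sEVs 9 were lower and 0 higher, and in neuron sEVs 4 were lower and 1 higher. The lipoprotein receptor gene Lrp1 had 0 reads in microglia sEVs and 71.5 ± 17.2 CPM in microglia cells, at least 13.2-fold lower (adjusted p = 0.000309, edgeR). Clu, the gene of the secreted apolipoprotein J, had 117 ± 41.7 CPM in astrocyte sEVs, against 5766 ± 1554 CPM in astrocyte cells. The 1 higher gene in neuron sEVs was Npc2, which encodes a secreted lysosomal cholesterol carrier (640 ± 185 CPM in sEVs, against 368 ± 43.4 CPM in cells). Of 8 tested cytosolic lipid carriers and droplet proteins, 1 was higher in microglia sEVs, 2 in astrocyte sEVs and 3 in neuron sEVs, and 0 were lower. Dbi, the acyl-CoA binding protein gene, rose in microglia sEVs (152 ± 32.4 CPM, against 66.7 ± 4.37 CPM in cells, adjusted p = 0.0449, edgeR).

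Among 14 tested ligands, receptors and matrix enzymes around osteopontin and CD44, 6 were lower and 0 higher in microglia sEVs (median -3.32, or -2.76 with bounds), 4 lower and 1 higher in astrocyte sEVs, and 5 lower and 0 higher in neuron sEVs. The 1 higher gene in astrocyte sEVs was Mmp12, the macrophage elastase gene, which had few reads in 2 sEV libraries and 0 in the third, against 0 reads in astrocyte cells (adjusted p = 0.0149, edgeR). The integrin gene Itga5 had 0 reads in microglia sEVs and 280 ± 90.7 CPM in microglia cells, at least 51.8-fold lower. Itgb1, the integrin beta chain that pairs with it, had 59.99 ± 17.5 CPM in microglia sEVs, against 631 ± 19.3 CPM in cells. Of 4 tested cytoplasmic linkers of CD44 to actin, 0 were called in microglia sEVs, whereas 1 was higher in astrocyte sEVs and 3 in neuron sEVs. Rdx, the radixin gene, had 533 ± 39.9 CPM in astrocyte sEVs, against 87.8 ± 12.99 CPM in astrocyte cells, and 622 ± 165 CPM in neuron sEVs, against 50.7 ± 7.75 CPM in neuron cells. Of 3 tested further galectins, 1 was higher in astrocyte sEVs, Lgals1 (98.5 ± 20.7 CPM, against 18.8 ± 8.70 CPM in cells), 1 in neuron sEVs, again Lgals1 (log2 fold change 1.75, adjusted p = 0.0313, edgeR), and 0 in microglia sEVs. The 1 tested cytosolic cystatin, Cstb, was called in none of the 3 cell types, and no further secreted cystatin passed the filter.

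**Figure D5:**
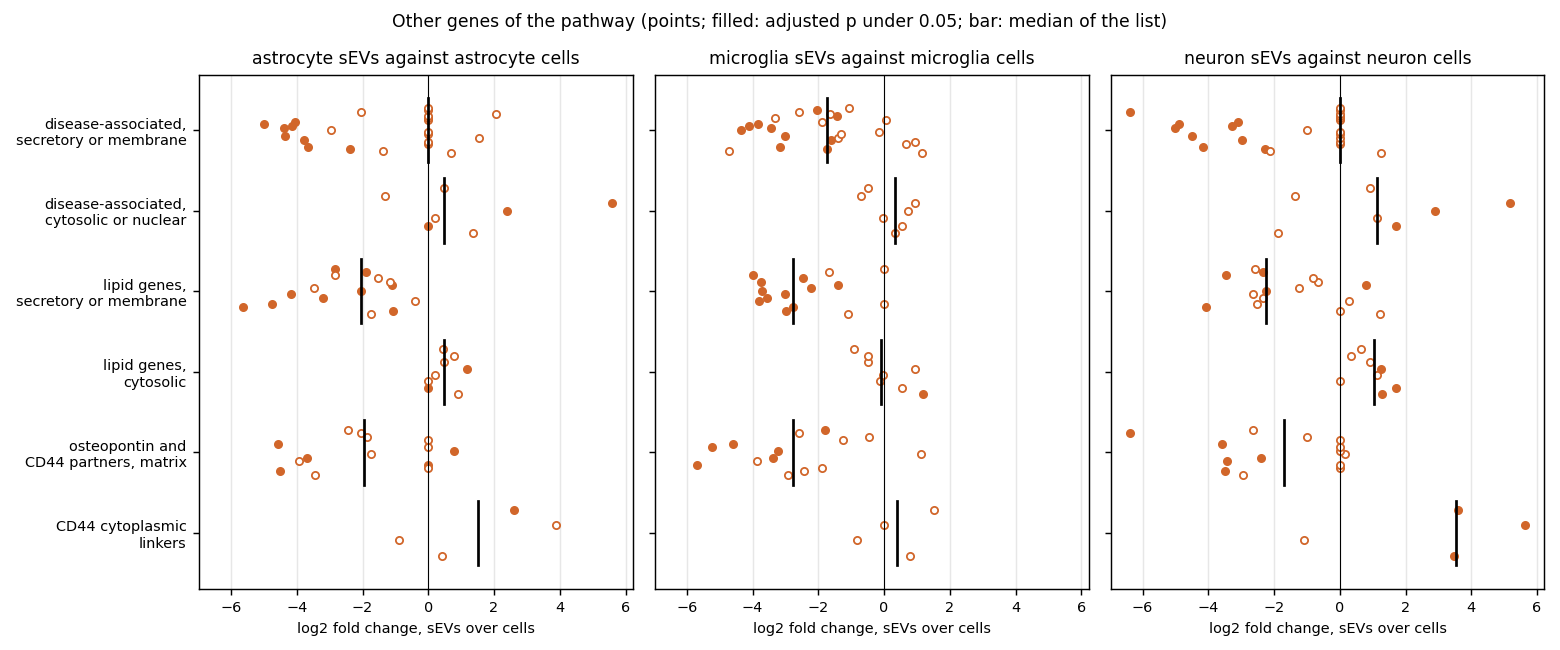
Log2 fold change of sEVs over cells for each tested gene of the pathway lists, in astrocytes, microglia and neurons, with a bar at the list's median; genes with 0 reads in a group are drawn at their bound, and filled points have an adjusted p under 0.05. In microglia 10 of 23 secretory disease-associated genes and 11 of 15 secretory lipid genes are called lower, against 0 of 7 and 0 of 8 genes in the cytosolic lists.

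Genes with the most similar pattern over the 18 libraries were found by the root mean square difference of gene-centred log2 CPM, a description over libraries that share 6 groups. For Apoe the closest was Cd63, a tetraspanin gene, at 0.548, followed by Sypl at 0.661 and Pon2 at 0.762. For Lgals3 they were Fcer1g (0.742), Usp18 (0.743) and Ccl9 (0.759). The closest gene to Spp1 was Lgals3 itself (0.953), before the macrophage genes Lyz2 (1.05) and Cd68 (1.10). Gpnmb lay closest to Adgre1 (0.907), the macrophage gene of F4/80, then Icam1 and Ctss. Lpl lay closest to Unc93b1 (0.909), Cd44 to Tapbp (0.615), Cst3 to Chkb (0.439) and Cst7 to Epsti1 (0.156).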

How the data were processed

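Raw read counts for each isoform were deposited by the authors, beside its gene symbol and its structural class. Per the submitters' processing notes, minimap2 and GRCm39 were used, and which versions, which isoform caller and which annotation is not given in the sources used here. Per the labels' protocols, cDNA was reamplified before sequencing, and the reads carry no molecular identifiers, so floors and intervals cover counting error only.

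The isoform counts of a gene symbol were added up. The common dispersion was 0.310, a coefficient of variation of 0.556. The gene test was that of edgeR 4.0.16, run in R 4.3.3 (filterByExpr by group, TMM, quasi-likelihood F tests, Benjamini-Hochberg). Isoforms were tested in the same way (9370 isoforms), and isoform usage with diffSpliceDGE and gene-level Simes p-values. A standard error is the log2 fold change over the square root of its F statistic. Shares and ratios were compared by exact permutation of 3 against 3 libraries, where a library had 10 or more reads of the gene. Alternatives were DESeq2 1.42.0, no TMM, no filter on low counts, full-splice-match reads only, the replicate number as a block, the 2 groups alone, and leaving out each library. The fit without the filter gave far smaller adjusted p-values in many comparisons. For Spp1 between microglia and neuron cells it gave 7.57e-133, against 5.88e-07 in the main fit (edgeR). Calls of that fit are therefore given as values only. An alternative without the 2 libraries whose reads were over 5% Gm42047 was chosen after seeing the data.

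The members and lists were chosen with earlier results of these data known. Genes other than the 8 were named, per list, contrast and direction, as up to 4 with adjusted p under 0.05, no overlap between the groups and a mean of 20 or more reads in the higher group. The 3 most similar tested genes were taken from log2 CPM with a prior count of 2, passing over predicted genes. Named isoforms hold 5% or more of a gene's reads, other isoforms and genes being named where a count of 5 or fewer turned on them, after their values were seen. Replicate numbers were not taken to pair the cell and sEV libraries, since the labels name no shared culture. Correlations of same-numbered deviations ran from -0.081 to 0.080, and of different-numbered ones from -0.082 to 0.073. Some isoforms of microglia replicate 3 stood apart in both fractions, and whether same-numbered libraries share a culture was not tested. The values of some list genes are not reported here.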

Additional observations from a re-analysis of the deposited data

How the results depend on the processing

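Of the 8 genes' sEV-to-cell changes, Apoe in 3 cell types, Lpl, Gpnmb and Cd44 in microglia, and Cst3 and Cd44 in astrocytes kept their sign and call in all 18 fits that left out a library and in the other alternatives run, as did Cd44 in neurons except with the 2 groups alone, where it was not tested. The count of microglia genes called higher was 221 over all genes, and became 666 without TMM, 395 with DESeq2 and 415 with the 2 groups alone. With full-splice-match reads only, genes called higher numbered 379 in astrocytes (main 658) and 676 in neurons (main 1117), and 1 of the 8 genes differed between neuron and astrocyte cells (main 3; 6 without the filter). For microglia minus astrocyte, where edgeR called 0, the interaction count was 3 without TMM, 5 without the filter, 3 with DESeq2 and 1 without the Gm42047-rich libraries. For neuron minus astrocyte it was 1 without the filter and 1 with DESeq2. The shares of all genes called in the interactions under these alternatives were not counted. Of the 8 genes, 2 and not 4 were called in neurons with the 2 groups alone, and 2 without the Gm42047-rich libraries, where 1 neuron isoform was called (main 3) and the uncalled astrocyte changes turned to 0.28 for Spp1 and 0.23 for Lgals3. With the replicate block, 4 microglia isoforms were called (main 7), isoform usage gave 1 call in astrocytes (main 0), and Lpl in neurons was lost (adjusted p = 0.0681, edgeR), as with full-splice-match reads only (0.0659). Counting incomplete-splice matches as well turned the microglia Gpnmb share difference from -4.20 to 0.701 percentage points.

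Leaving out 1 library at a time gave 378 to 753 higher genes in astrocytes, 79 to 232 higher and 488 to 868 lower in microglia, and 2 to 4 of the 8 genes in neurons. It gave 0 to 1 interaction calls for microglia minus astrocyte, 1 to 3 calls between neuron and astrocyte sEVs, and 0 to 1 usage calls in astrocytes. Isoform calls ran from 3 to 9 in microglia and from 1 to 3 in neurons. Uncalled changes that turned sign were Spp1 (-1.74 to 0.28) and Lgals3 (-0.54 to 0.22) in astrocytes and Cst7 in microglia (-0.16 to 0.26). The causes were not tested. Without TMM the median of all genes moved to 0.136 in microglia and -0.469 in neurons.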

Other observations

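Replicate 3 of the microglia also stood apart in isoforms of genes outside the 8. Among 1043 isoforms of 789 genes with 50 or more reads in each of the 6 microglia libraries and a mean isoform share of 10% or more, an isoform was counted as apart where both libraries of 1 replicate number differed from the 4 others by 20 or more percentage points in the same direction. There were 6 such isoforms of 4 genes for replicate 3, counting the 2 Lgals3 isoforms described above, with the rest from Nub1, Sp110 and Oasl2. There were 2 of 1 gene for replicate 1 (Lilrb4a) and 0 for replicate 2. An isoform of Sp110 with an alternative 5′ end held 95.9, 63.8 and 0% of the gene's reads in microglia sEVs, against 89.0, 77.7 and 0% in microglia cells. A Sp110 isoform marked as having an alternative 3′ splice site held 0, 0 and 75.6% in sEVs, against 0, 0 and 72.0% in cells. The leading Oasl2 isoform held 89.9, 68.7 and 1.20% in sEVs, against 84.6, 77.3 and 47.1% in cells. These genes were singled out after their values were seen, and the labels do not say how the replicates of a culture differ.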
